A study of Mus musculus with 24 samples.

Results

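Gene expression in gastrocnemius, a mostly fast-fibred muscle of the calf, was compared between old mice under caloric restriction, a reduced food intake, and young mice fed ad libitum. The old caloric restricted mice were 24 months old and the young ad libitum mice 8 months old, and old ad libitum mice of 24 months, the third set of the study, are given beside them as values. All were male B6D2F1 mice, a hybrid strain, from a colony kept for the National Institute on Aging, and no source used here gives the degree or start of the restriction. Arrays were chosen by their labelled sample type, which gave 17 of the 24 arrays: 7 arrays of 5 restricted mice and 10 arrays of 6 young mice, with 7 arrays of 6 old ad libitum mice left out of the contrast. Arrays whose titles carry the same name were averaged as 1 mouse. Nothing in the labels states outright that each name is a separate animal, and p-values here stand for the spread between such named samples only. Restricted and young mice differ in age and in diet at once, and their effects cannot be told apart in this contrast. Whether the mice had been fed, and at what hour they were sampled, is likewise not given.

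Caloric restriction extends life span in many rodent strains and lowers body fat, and its effect on muscle mitochondria in old age was the subject of the study. Cells make fatty acids in the cytosol from citrate, which the citrate carrier brings out of the mitochondrion and ATP citrate lyase splits into acetyl-CoA. Fatty acid synthase builds the chain, and an elongase and a desaturase finish it. In muscle, collagens and basement membrane proteins wrap each fibre and each capillary, and genes of the circadian clock set a daily rhythm in fuel use.

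Probe signals were background corrected, quantile normalized and put on the log2 scale, so a difference of 1 is a doubling of normalized signal. Of the 45281 probes, between 13625 and 14401 were detected on arrays of restricted mice, 13974 to 14890 on arrays of old ad libitum mice and 13662 to 15176 on arrays of young mice. The number of mice limits the precision: the median SD between mice was 0.17 among restricted, 0.19 among old ad libitum and 0.14 among young mice. Of the 15 skeletal muscle fibre markers tested, none passed the threshold, with a median difference of -0.02. Only genes detected on at least 5 arrays were tested, and Myh2 of this list was not among them. In bulk muscle, fewer cells of a type and less RNA per cell cannot be told apart.

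Of 8943 genes tested with limma, 421 differed between restricted and young mice at an adjusted p under 0.05, which is 4.71% of the genes. Of these, 181 were higher in restricted mice (2.02%) and 240 were lower (2.68%), and 26 differed by more than 2-fold, 15 of them higher and 11 lower. With arrays scaled to the 75th percentile in place of quantiles, 208 were higher and 166 lower. The median size of the called differences was 0.45 on the log2 scale. The restricted and young mice did not overlap for 97 of the 181 genes called higher and 148 of the 240 called lower. Over all 8943 genes, 187 (2.09%) were higher and 272 (3.04%) lower without overlap. The called genes were chosen on the difference between these mice, so their lack of overlap is a description only. Each of the 4 chips held both groups, and 416 of the 421 genes had the same direction on every chip, which is a description only, since the genes were chosen on these arrays and young mouse 6 had an array on each chip. With chip as a fixed block over the 24 arrays, 546 genes passed (232 higher, 314 lower). In the same fit, which shares these mice, old ad libitum differed from young mice for 2.06% of genes (1.34% higher, 0.716% lower), and restricted from old ad libitum mice for 3.18% (0.917% higher, 2.26% lower). Differences that involve old ad libitum mice, given below for named genes, likewise share mice with the contrast. The called genes were chosen on that contrast, so those differences and their adjusted p are values beside it and no second result.

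The number of genes called moved with single mice. It was 215, 204, 131, 240 and 691 without restricted mouse 1, 2, 3, 4 or 5, and 170, 136, 176, 194, 310 and 558 without young mouse 1, 2, 3, 4, 5 or 6, as the plot of counts without each mouse shows. Without young mice 1, 2 and 3 together it was 3, of which Kcnf1 and Lonrf3 were higher and Snx24 lower, and no member of any list described here passed.

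**Figure D1:**
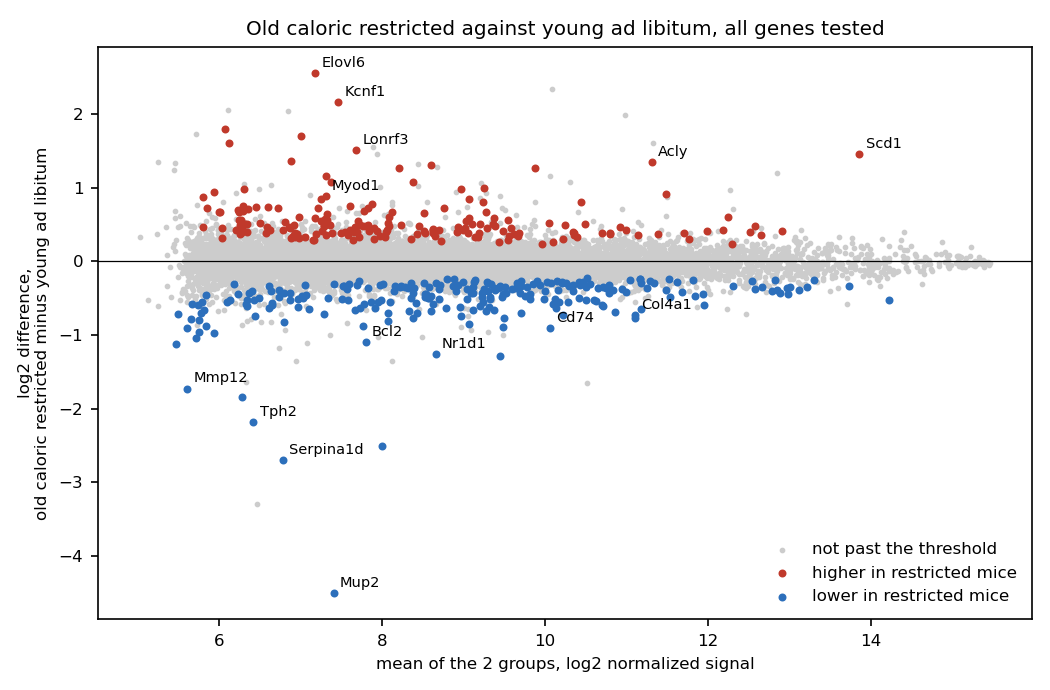
Log2 difference of old caloric restricted minus young ad libitum mice (vertical axis) against the mean log2 signal of both groups (horizontal axis), 1 point per gene for 8943 genes. The 181 red points were higher and the 240 blue points lower in restricted mice at an adjusted p under 0.05, with Elovl6 the highest called point and Mup2 the lowest.

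**Figure D2:**
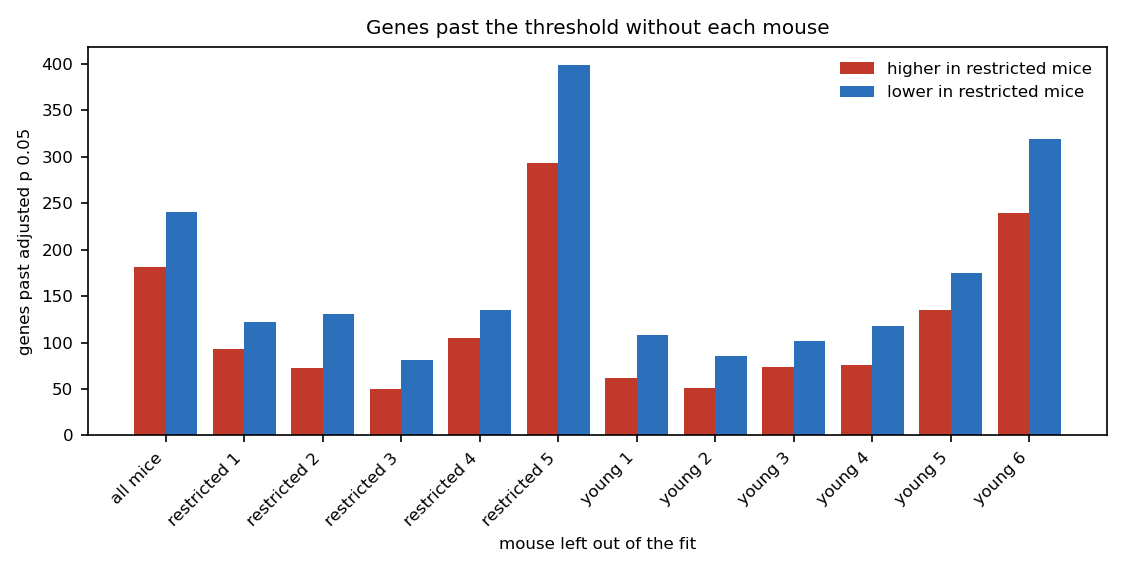
Number of genes past an adjusted p of 0.05 (vertical axis, bars from 0) with all mice and without each restricted or young mouse (horizontal axis), higher in restricted mice in red and lower in blue. The total runs from 131 without restricted mouse 3 to 691 without restricted mouse 5.

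Among the 39 lists, chosen with earlier results of these data known, fatty acid and lipid synthesis held the most genes that rose. Counts of list members are therefore a description and no test of a list. Of 25 tested genes of the lipid synthesis list, 5 rose (Elovl6, Scd1, Acly, Slc25a1 and Fasn) and 1 fell (Mlxipl), where 2.02% of all genes rose and 2.68% fell. In all 20 were higher and 5 lower, with a median of 0.23, against -0.01 over all genes. The median was 0.14 without restricted mouse 3 or without young mouse 4. The list's median was -0.06 in old ad libitum against young mice and 0.30 in restricted against old ad libitum mice. The promoters of Slc25a1 and Fasn are shown because these risen genes hold the letters of promoter elements that were searched for. They are RefSeq sequences on GRCm38.p6, the 250 bases before the gene start on the gene's own strand. Capitals mark CACGTG (an E box) and CCAAT or its reverse complement, ATTGG.

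Slc25a1, chr16:17928220-17928469, minus strand: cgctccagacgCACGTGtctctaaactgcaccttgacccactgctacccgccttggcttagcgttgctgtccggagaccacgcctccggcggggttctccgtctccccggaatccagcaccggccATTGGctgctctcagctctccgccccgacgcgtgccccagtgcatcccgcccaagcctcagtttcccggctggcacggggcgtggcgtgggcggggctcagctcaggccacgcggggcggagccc
Fasn, chr11:120824548-120824797, minus strand: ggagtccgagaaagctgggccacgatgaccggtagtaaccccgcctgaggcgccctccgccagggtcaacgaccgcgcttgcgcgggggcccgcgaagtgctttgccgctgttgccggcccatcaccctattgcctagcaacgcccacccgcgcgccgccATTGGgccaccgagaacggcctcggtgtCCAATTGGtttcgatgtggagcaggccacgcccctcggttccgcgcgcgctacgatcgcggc

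Searched on both strands, the Slc25a1 window held 1 CACGTG, starting at base -239, and 1 CCAAT, and the Fasn window held 3 CCAAT, a pair of them overlapping on opposite strands, and no CACGTG. The windows of Elovl6, Acly, Aacs and Tkt held neither. Among 32851 mouse promoter windows of this length, 6.02% held CACGTG and 33.8% held CCAAT, and a match describes the letters and no more. The sterol regulatory element TCACNCCAC, found in 1.05% of windows, was in none of these windows. Scd1 had no promoter entry, so its promoter was not searched.

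Elovl6, the elongase that lengthens palmitate, had log2 signals of 7.32, 8.57, 9.96, 8.00 and 8.43 in restricted mice 1 to 5, against 5.26 to 7.40 (median 5.66) in young mice. Only restricted mouse 1 lay below a young mouse, number 6, which at 7.40 was the highest of its group. It was detected on all 7 restricted and 5 of 10 young arrays. It was 5.89-fold higher in restricted mice (a log2 difference of 2.56 ± 0.44 SE, adjusted p = 0.00558), and its second probe gave a difference of 1.84. Old ad libitum mice ran from 5.19 to 6.98 (median 5.67), and restricted mice were 2.61 above them on the log2 scale (adjusted p = 0.00888).

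Scd1, the desaturase that makes oleate from stearate, had signals of 13.87, 14.77, 15.04, 14.46 and 14.81 in restricted mice, against 12.66 to 14.34 (median 12.97) in young mice. Young mouse 6, at 14.34, was again the only young mouse within the restricted range. The difference was 1.45 ± 0.29 SE on the log2 scale (2.74-fold, limma adjusted p = 0.0127), and 1.2 against old ad libitum mice (adjusted p = 0.0331).

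Acly, ATP citrate lyase, had signals of 11.26, 12.04, 13.06, 11.27 and 12.30 in restricted mice and 10.34 to 11.41 (median 10.45) in young mice, and was 2.55-fold higher (a log2 difference of 1.35 ± 0.34 SE, adjusted p = 0.0325). Slc25a1, the citrate carrier, had signals of 8.11, 9.60, 10.23, 8.71 and 9.64 in restricted mice and 7.16 to 8.77 (median 7.92) in young mice, and was 2.47-fold higher (adjusted p = 0.0297). Fasn, fatty acid synthase, had signals of 5.91, 6.6, 6.98, 5.96 and 6.23 in restricted mice and 5.34 to 6.20 (median 5.60) in young mice, and was 1.59-fold higher (adjusted p = 0.0451), with detection on 6 of 7 restricted and 4 of 10 young arrays. For each of Acly, Slc25a1 and Fasn the groups overlapped, restricted mice 1 and 4 were the lowest pair of their group, and restricted mouse 3 was the highest. Mlxipl, a transcription factor that responds to glucose, was 0.43 lower on the log2 scale with no overlap between the groups (adjusted p = 0.0107), but its second probe gave -0.04 (unadjusted p = 0.761).

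Elovl6, Scd1 and Mlxipl passed without each mouse in turn. Acly, Slc25a1 and Fasn lost the call without restricted mouse 2 or 3 or any of young mice 1 to 4, and Acly and Fasn also without young mouse 5 (highest adjusted p 0.0967, 0.0856 and 0.126), and without young mice 1, 2 and 3 together Elovl6 had an adjusted p of 0.2. Within the chips the difference ran from 1.24 to 2.91 for Elovl6 and from 0.69 to 1.37 for Scd1. Of the 14 adipocyte markers tested none passed, 10 were higher and 4 lower, and their mean centred level ran from -0.70 to 0.32 in restricted and -0.66 to 0.86 in young mice. Among them Lep, the adipocyte hormone leptin, had signals of 8.92 to 10.77 in restricted and 9.99 to 12.10 in young mice (a log2 difference of -1.65 ± 0.56 SE, adjusted p = 0.0968). Cidea, a lipid droplet protein, had 7.33 to 9.64 in restricted and 5.68 to 10.03 in young mice (a log2 difference of 1.46 ± 0.70 SE, adjusted p = 0.234), and Car3, a carbonic anhydrase, had 12.63 to 13.18 in restricted and 12.14 to 12.66 in young mice (log2 difference 0.45, adjusted p = 0.0816). Fabp4 and Retn were not detected. The mean centred adipocyte level was lowest in restricted mouse 1 and young mouse 4, and highest in restricted mouse 2 and young mouse 6. That of the lipid synthesis list was lowest in restricted mouse 4 and young mouse 4, and highest in restricted mouse 3 and young mouse 6. The part of adipocytes in the lipid synthesis result was not tested.

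**Figure D3:**
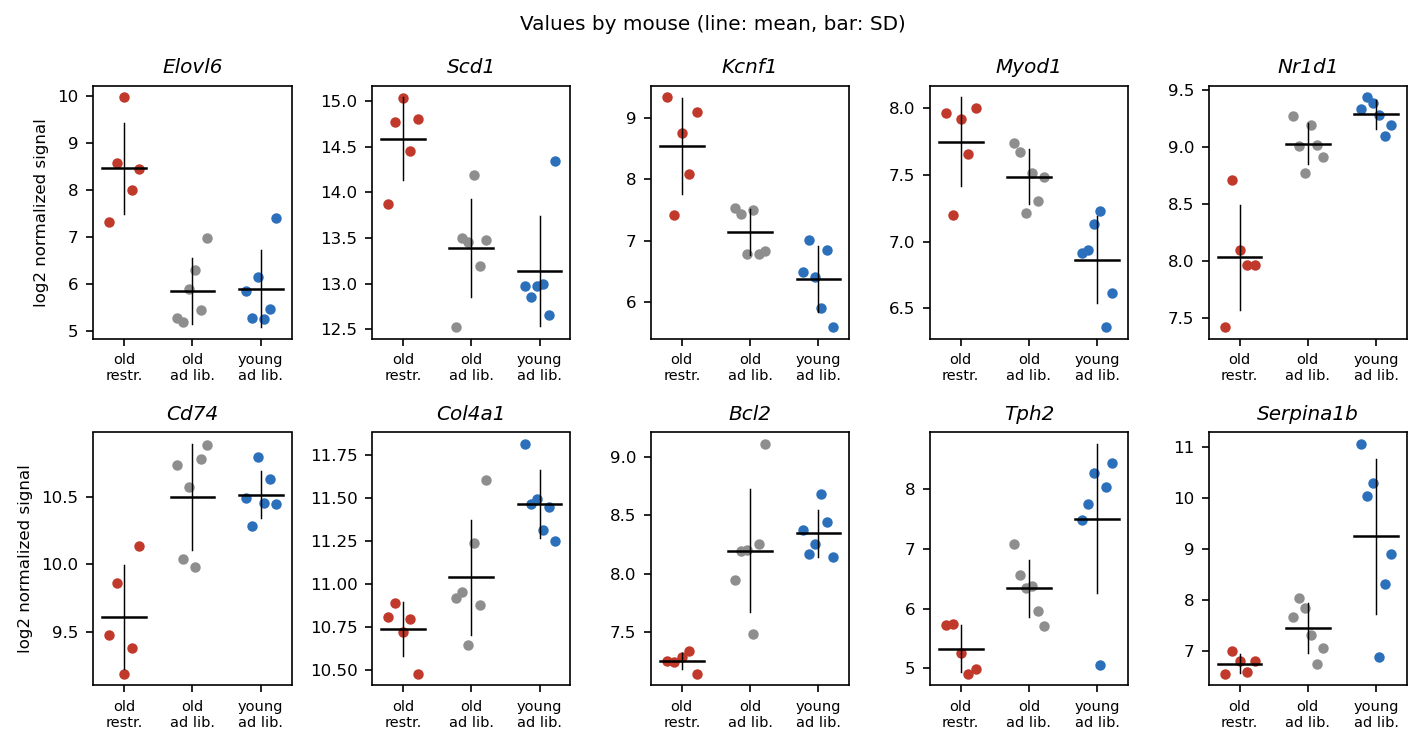
Log2 normalized signal (vertical axes) of 10 genes in each mouse, with old caloric restricted mice in red at the left, old ad libitum mice in grey and young ad libitum mice in blue, and with the group mean as a line and the SD as a bar. Nr1d1, Kcnf1, Cd74, Col4a1 and Bcl2 show no overlap of restricted and young mice, and young mouse 6 is the high blue point of Elovl6 and Scd1.

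Aacs, Tkt, Acsm3 and Mgst2, which are on none of the lists, were also among the 15 largest rises. Aacs, the cytosolic acetoacetyl-CoA synthetase that turns ketone bodies into lipid precursors, had signals of 8.24, 8.51, 9.56, 8.22 and 9.67 in restricted mice and 7.09 to 7.88 (median 7.61) in young mice, with no overlap (a log2 difference of 1.27 ± 0.25 SE, adjusted p = 0.0107). Tkt, transketolase of the pentose phosphate pathway, had signals of 9.56, 10.88, 11.15, 9.96 and 10.97 in restricted mice and 8.54 to 10.25 (median 9.17) in young mice, and was 2.4-fold higher (adjusted p = 0.0213). Acsm3, a mitochondrial medium-chain acyl-CoA synthetase, rose 3.04-fold (adjusted p = 0.0328), and Mgst2, a microsomal glutathione transferase, rose 2.56-fold (adjusted p = 0.0256). On young arrays Acsm3 was detected on 4 of 10 and Mgst2 on 8 of 10. Restricted mouse 1 was the lowest restricted mouse for Tkt, Acsm3 and Mgst2, and young mouse 6 was the highest young mouse for each. Aacs passed without each mouse in turn, and Tkt lost the call without restricted mouse 2 or 3 or young mouse 2 (highest adjusted p 0.0661). Mgst2 lost it without restricted mouse 2 or 3 or any of young mice 1 to 4, and Acsm3 without restricted mouse 2, 3 or 4 or any of young mice 1 to 5 (highest adjusted p 0.0754 and 0.098).

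Kcnf1, a potassium channel subunit that modifies other channels, and Lonrf3, a protein with a RING domain, were the 2 named genes that kept the call under all 27 alternatives. Kcnf1 had signals of 9.33, 7.42, 8.76, 8.09 and 9.10 in restricted mice and 5.60 to 7.01 (median 6.45) in young mice (4.47-fold, a log2 difference of 2.16 ± 0.31 SE, adjusted p = 0.0018). Lonrf3 had signals of 8.83, 7.76, 8.89, 8.02 and 8.66 in restricted mice and 6.57 to 7.43 (median 6.78) in young mice (2.84-fold, adjusted p = 0.00296). Kcnf1 was detected on all 7 restricted and 6 of 10 young arrays. Neither gene overlapped between the groups, and restricted mouse 2 was the lowest restricted mouse for both. Against old ad libitum mice the differences were 1.39 for Kcnf1 (adjusted p = 0.0255) and 1.14 for Lonrf3 (adjusted p = 0.0189).

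Slc1a3, a glutamate transporter, was 1.08 higher on the log2 scale in restricted than young mice (adjusted p = 0.0346) and 1.15 higher in old ad libitum than young mice (adjusted p = 0.0346). Cntnap2, a membrane protein of the axon that holds potassium channels in place, was 1.08 higher in restricted than young mice without overlap (adjusted p = 0.0297) and 1.28 higher in restricted than old ad libitum mice (adjusted p = 0.0189). Slc1a3 and Cntnap2 lost the call without restricted mouse 2 or 3 or any of young mice 1 to 5, Slc1a3 also without restricted mouse 4 or 5, and Cntnap2 also without restricted mouse 1 (highest adjusted p 0.0866 and 0.08).

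**Figure D4:**
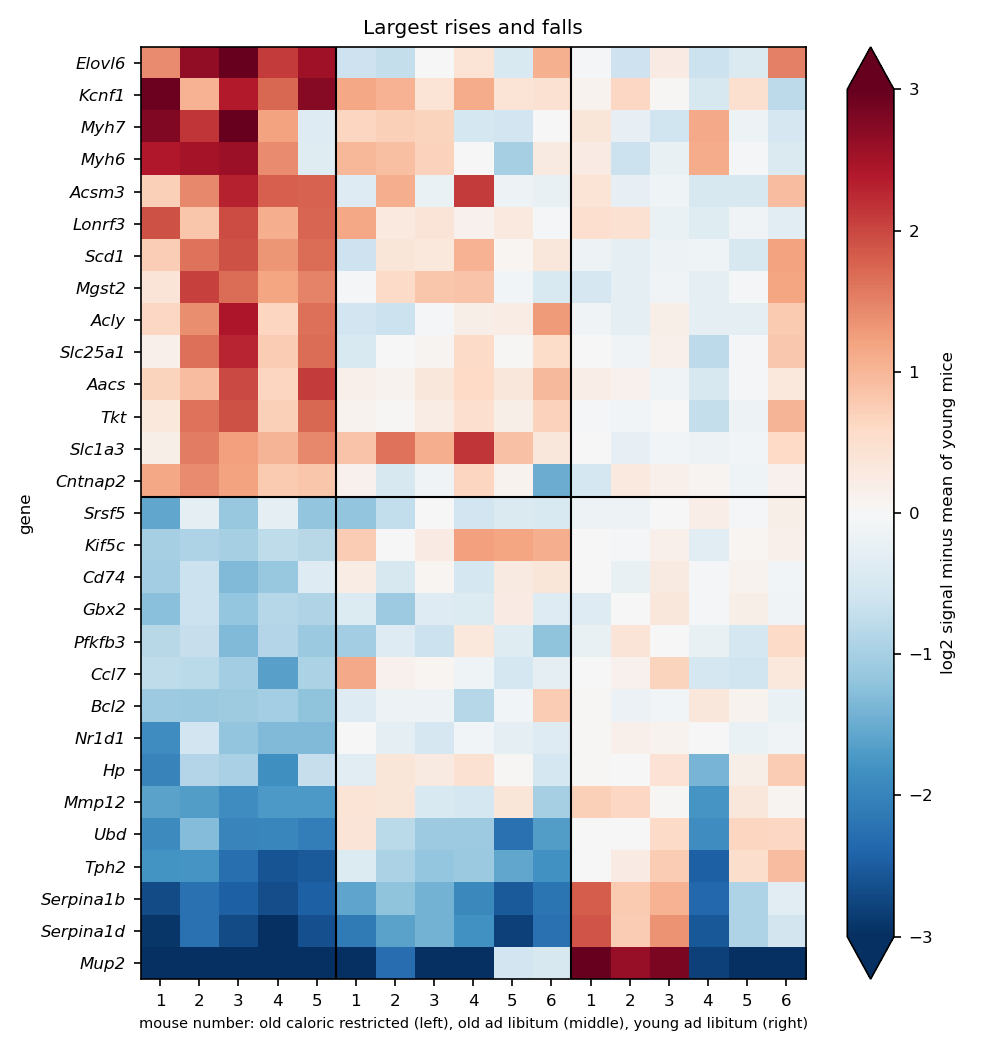
Log2 signal minus the mean of young mice (colour, saturating at 3 either way) for the called genes with the 15 greatest rises, 1 of them not shown, and 15 greatest falls (vertical axis) in each mouse (horizontal axis), with old caloric restricted mice at the left, old ad libitum in the middle and young ad libitum at the right. Young mouse 4 is low for Hp, Mmp12, Ubd and Tph2, and Mup2 is high in young mice 1, 2 and 3.

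Of 12 tested genes of the circadian clock, 2 fell, Nr1d1 and Clock, where 2.68% of all genes fell, and the list was split at 6 higher and 6 lower with a median of -0.06. Nr1d1, the nuclear receptor REV-ERB alpha that represses clock and metabolic genes, had signals of 7.42, 8.71, 8.10, 7.96 and 7.96 in restricted mice, against 9.09 to 9.43 (median 9.31) in young mice. No restricted mouse reached the lowest young mouse. Nr1d1 was 2.39-fold lower (a log2 difference of -1.26 ± 0.16 SE, adjusted p = 0.00078), the smallest adjusted p of the named genes. Clock, whose protein pairs with BMAL to drive the rhythm, had signals of 9.57, 9.66, 9.56, 9.65 and 9.52 in restricted mice and 9.94 to 10.17 (median 9.98) in young mice, again without overlap (log2 difference -0.44, adjusted p = 0.00359). Old ad libitum mice ran from 8.77 to 9.27 (median 9.01) for Nr1d1 and 9.85 to 10.13 (median 9.93) for Clock, and restricted mice differed from them by -1.0 (adjusted p = 0.00506) and -0.37 (adjusted p = 0.0149) on the log2 scale. Per2, a repressor of the clock, had signals of 8.99 to 9.76 in restricted mice and 7.57 to 9.05 in young mice, a difference of 0.95 that did not pass (adjusted p = 0.108). Within the chips Nr1d1 differed by -1.60 to -0.60, and both called genes passed without each mouse in turn. The clock list's median was -0.32 without young mice 1, 2 and 3, and leaving out 1 mouse it ran from -0.17 without young mouse 1 to -0.02 without young mouse 6, past 1.5 times its value also without restricted mouse 2 or 5 or young mouse 2 or 3.

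Among the same lists, chosen with earlier results of these data known, collagens and the extracellular matrix held the most genes that fell. Of 35 tested, 8 fell (Col4a1, Col4a2, Col15a1, Col18a1, Col5a1, Loxl1, P4ha1 and P4ha2) and none rose, where 2.68% of all genes fell, and 32 were lower with a median of -0.40, against -0.01 over all genes. The list's median was -0.29 in old ad libitum against young mice and -0.04 in restricted against old ad libitum mice. The mean centred level of the list ran from -0.33 to -0.02 in restricted mice and from 0.08 to 0.34 in young mice.

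Col4a1 and Col4a2 encode the paired chains of type IV collagen, the network of every basement membrane. Col4a1 had signals of 10.81, 10.89, 10.72, 10.80 and 10.48 in restricted mice and 11.25 to 11.81 (median 11.46) in young mice, and was 1.65-fold lower (a log2 difference of -0.73 ± 0.14 SE, adjusted p = 0.00967). Col4a2 had signals of 9.85, 9.90, 9.84, 9.68 and 9.81 in restricted mice and 10.34 to 10.72 (median 10.39) in young mice, and was 1.55-fold lower (adjusted p = 0.00711). Neither gene overlapped between restricted and young mice.

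Col18a1 and Col15a1 encode the related collagens of the zone around basement membranes. Col18a1 was 1.8-fold lower in restricted mice, at 8.28, 8.78, 8.43, 8.60 and 9.11, than in young mice, at 9.09 to 9.73 (median 9.48), with restricted mouse 5 just inside the young range (adjusted p = 0.0057). Col15a1 was 1.62-fold lower without overlap (adjusted p = 0.016). Col5a1, a fibrillar collagen chain that sets fibril width, was 1.54-fold lower (adjusted p = 0.0292). Col1a1, the main fibrillar collagen, did not pass, with signals of 7.26 to 8.42 in restricted mice and 7.99 to 8.79 in young mice (log2 difference -0.54, adjusted p = 0.229).

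Of the list's 6 tested genes of collagen processing and cross-linking, P4ha1, P4ha2 and Loxl1 fell, and Lox, Serpinh1 and Plod1 did not pass (log2 differences -0.36, -0.48 and 0.13, adjusted p = 0.126, 0.0787 and 0.515). P4ha2 and P4ha1 are the catalytic subunits of prolyl hydroxylase, which stabilises the triple helix. P4ha2 had signals of 8.97, 8.90, 8.91, 9.09 and 9.37 in restricted mice and 9.42 to 9.85 (median 9.72) in young mice, and was 1.58-fold lower (a log2 difference of -0.66 ± 0.11 SE, adjusted p = 0.00558). P4ha1 was 1.49-fold lower (adjusted p = 0.0216), and Loxl1, a lysyl oxidase that cross-links elastin, was 1.42-fold lower (adjusted p = 0.0158). P4ha2 and P4ha1 did not overlap between the groups, while restricted mouse 5 was within the young range for Loxl1. Against old ad libitum mice P4ha2 differed by -0.45 (adjusted p = 0.0375) and P4ha1 by -0.53 (adjusted p = 0.033), whereas Col4a1 differed by -0.30 (adjusted p = 0.246) and Col5a1 by -0.09 (adjusted p = 0.784).

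Col4a1, Col4a2, Col18a1, Loxl1 and P4ha2 passed without each mouse in turn. Col15a1 lost the call without restricted mouse 3 (adjusted p = 0.0543), P4ha1 without restricted mouse 2 or 3 or young mouse 1 or 2 (up to 0.062), and Col5a1 without restricted mouse 1, 3 or 4 or any of young mice 1 to 4 (up to 0.0848). No marker of fibroblasts, endothelium or tendon passed, but 15 of 16 fibroblast markers were lower (median -0.25), all 14 endothelial markers tested were lower (median -0.18), and 4 of 5 tendon markers were lower (median -0.64). The mean centred fibroblast level ran from -0.22 to 0.22 in restricted and 0.09 to 0.32 in young mice, the endothelial from -0.20 to -0.01 in restricted and -0.02 to 0.18 in young mice, and the tendon from -0.84 to 0.41 in restricted and 0.03 to 0.58 in young mice. Kdr of the endothelial list and Tnmd, Mkx and Thbs4 of the tendon list were not detected. The part of these cell types in the matrix result was not tested.

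Of 33 tested genes of interferon response and antigen presentation, 3 fell, where 2.68% of all genes fell, and 27 were lower, with a median of -0.11. The genes that fell, Cd74, H2-Ab1 and H2-Eb1, belong to MHC class II, which presents peptides to helper T cells. The list's other class II members tested, H2-Aa and H2-DMa, did not pass, with log2 differences of -0.74 (adjusted p = 0.0533) and -0.40 (adjusted p = 0.0967). The median was -0.17 without restricted mouse 5 and -0.07 without young mouse 4. The list's median was 0.18 in old ad libitum against young mice and -0.37 in restricted against old ad libitum mice. The promoter of H2-Eb1, from RefSeq on GRCm38.p6, is shown because H2-Eb1 is one of the class II genes that fell. Capitals mark CTGATTGG, the Y box of class II promoters, whose last letters, ATTGG, are the reverse complement of CCAAT, and the other CCAAT.

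H2-Eb1, chr17:34305617-34305866, plus strand: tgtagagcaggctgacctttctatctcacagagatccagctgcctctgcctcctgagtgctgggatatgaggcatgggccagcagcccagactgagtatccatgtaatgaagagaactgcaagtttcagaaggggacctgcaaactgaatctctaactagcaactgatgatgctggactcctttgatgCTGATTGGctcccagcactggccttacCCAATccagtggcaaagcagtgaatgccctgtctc

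The Y box started at base -62. On both strands CTGATTGG was found in 3.83% of the 32851 promoter windows, and the windows of H2-DMb1 and H2-DMb2 held 1 CCAAT each and no CTGATTGG, which says only that these letters were not in those windows.

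Cd74, the invariant chain that guides class II molecules, had signals of 9.47, 9.86, 9.19, 9.38 and 10.13 in restricted mice and 10.28 to 10.79 (median 10.47) in young mice. No restricted mouse reached the young range, and Cd74 was 1.88-fold lower (a log2 difference of -0.91 ± 0.18 SE, adjusted p = 0.0121), with its other probes at -0.99 and -0.88. H2-Eb1, a beta chain, had signals of 7.88, 8.50, 7.32, 7.72 and 8.57 in restricted mice and 8.61 to 9.01 (median 8.74) in young mice, without overlap (log2 difference -0.76, adjusted p = 0.0393). H2-Ab1, the beta chain of the other class II molecule, had signals of 8.02, 8.65, 7.49, 7.71 and 8.51 in restricted mice and 8.63 to 8.96 (median 8.79) in young mice (log2 difference -0.70, adjusted p = 0.0451), and restricted mouse 2 was just above the lowest young mouse. H2-Ea, H2-DMb1 and H2-DMb2, singled out after their values were seen, were lower, with log2 differences of -0.74, -0.62 and -0.79 (adjusted p = 0.0199, 0.0344 and 0.0225), and the DMb genes are near-identical neighbours that probes may not separate. H2-DMb2 was detected on 1 of 7 restricted arrays. In old ad libitum mice Cd74 ran from 9.98 to 10.88 (median 10.65), and restricted mice differed from them by -0.89 for Cd74 (adjusted p = 0.0176), -0.85 for H2-Eb1 (adjusted p = 0.0306) and -0.84 for H2-Ab1 (adjusted p = 0.0265).

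Cd74 passed without each mouse in turn. H2-Eb1 and H2-Ab1 lost the call without restricted mouse 1, 3 or 4 or any of young mice 1 to 5, and H2-Ab1 also without young mouse 6 (highest adjusted p 0.115 and 0.132). Of 18 macrophage and myeloid markers tested, none passed and 16 were lower, with a median of -0.20 and a mean centred level of -0.51 to 0.08 in restricted and -0.15 to 0.27 in young mice. Mpeg1, a pore-forming protein of macrophages, had signals of 7.31 to 8.15 in restricted mice and 8.02 to 8.35 in young mice (log2 difference -0.64, adjusted p = 0.0517). Itgam and Ptprc were not detected, and of the lymphocyte markers 2 were tested and neither passed, both with a lower mean in restricted mice. Cd52 had signals of 6.28 to 7.74 in restricted mice and 6.93 to 7.61 in young mice (log2 difference -0.48, adjusted p = 0.237). Ccl5 was detected on no restricted and 3 of 10 young arrays, while Cd3e, Cd4, Cd8a and Ms4a1 were not detected. The part of these cells in the class II result was not tested.

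Of 25 tested genes of complement and inflammation, 2 fell, Hp and Ccl7, where 2.68% of all genes fell, and 19 were lower, with a median of -0.17. Hp, haptoglobin, the plasma protein that binds free haemoglobin, had signals of 8.08, 9.22, 9.11, 8.26 and 9.39 in restricted mice and 8.69 to 10.84 (median 10.20) in young mice. The low young value belongs to mouse 4, the only young mouse within the restricted range. Hp was 2.43-fold lower (a log2 difference of -1.28 ± 0.32 SE, adjusted p = 0.0324). Against old ad libitum mice, in a comparison that shares the restricted mice, the difference was -1.33 (adjusted p = 0.033). Ccl7, a chemokine that draws monocytes, was detected on no array of the restricted mice and was at least 1.19-fold lower there, a bound taken against the lowest detected signal of each array (adjusted p = 0.0339). Mmp12, the elastase of macrophages, was not detected in restricted mice either, with signals of 4.85, 4.78, 4.6, 4.73 and 4.74 there and 4.70 to 7.18 (median 6.67) in young mice, of which mouse 4 was the lowest. Mmp12 was at least 1.39-fold lower than in young mice (adjusted p = 0.0136). Mmp12 passed without each mouse in turn, Hp lost the call without restricted mouse 1, 3 or 4 or young mouse 1, 2, 3 or 5, and Ccl7 without any of restricted mice 1 to 4 or young mouse 1, 2 or 3 (highest adjusted p 0.0861 and 0.0827).

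The largest falls were of genes best known for proteins that the liver secretes, and some of the young mice were far above the others. Mup2, a major urinary protein, was detected on no array of the restricted mice, with signals of 4.78, 5.34, 5.69, 5.0 and 4.95. Its signals were 13.62, 12.27 and 12.48 in young mice 1, 2 and 3 and 6.86, 6.61 and 6.09 in young mice 4, 5 and 6. Mup2 was at least 12.7-fold lower in restricted mice (adjusted p = 0.0444). It was detected on 9 of 10 young and 4 of 7 old ad libitum arrays. It therefore met the 5-array detection filter only through the young mice, where it was high. Serpina1d, an alpha-1 antitrypsin, had signals of 5.21, 5.88, 5.44, 5.15 and 5.48 in restricted mice and 5.59 to 10.01 (median 8.24) in young mice (a log2 difference of -2.69 ± 0.56 SE, adjusted p = 0.0138), with detection on 1 of 7 restricted and 9 of 10 young arrays. Serpina1b, another copy, had 6.55, 7.0, 6.80, 6.58 and 6.81 in restricted mice and 6.88 to 11.06 (median 9.47) in young mice (adjusted p = 0.0138). Young mice 1, 2 and 3 were the 3 highest for all of these genes, and young mouse 4 lay within the restricted range of both Serpina1 genes. In old ad libitum mice Mup2 ran from 5.52 to 9.18 (median 6.71) and Serpina1b from 6.74 to 8.04 (median 7.49). Both families hold near-identical copies, so which copy was measured is uncertain. Both Serpina1 genes passed without each mouse in turn, whereas Mup2 lost the call without any 1 restricted mouse or without young mouse 1, 2 or 3 (highest adjusted p 0.106).

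Other falls among the largest 15 were of genes with varied roles. Bcl2, which protects cells from apoptosis, had signals of 7.25, 7.24, 7.28, 7.33 and 7.14 in restricted mice and 8.14 to 8.68 (median 8.32) in young mice. No restricted mouse reached the young range (2.14-fold lower, a log2 difference of -1.10 ± 0.19 SE, adjusted p = 0.00558). Its other probes gave -1.05 and -0.77, and old ad libitum mice ran from 7.48 to 9.11 (median 8.20). Tph2, the neuronal enzyme of serotonin synthesis, was not detected in restricted mice, with signals of 5.73, 5.74, 5.26, 4.91 and 4.99, against 5.06 to 8.44 (median 7.90) in young mice, and was at least 2.88-fold lower (adjusted p = 0.0136). Young mouse 4 alone among the young mice lay in the restricted range of Tph2. Ubd, a ubiquitin-like protein induced by interferon gamma, was detected on 1 of 7 restricted and 9 of 10 young arrays. It was 1.84 lower on the log2 scale (adjusted p = 0.0243), with young mouse 4 at 5.33 and the other young mice at 7.21 or above.

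Kif5c, a kinesin motor chain, was not detected in restricted mice (5.06, 5.12, 5.05, 5.30 and 5.21), against 5.73 to 6.21 (median 6.07) in young mice, a fall of at least 1.04-fold (adjusted p = 0.0138). In old ad libitum mice Kif5c ran from 6.04 to 7.28 (median 6.98), higher than in young mice by 0.75 (adjusted p = 0.0394). Gbx2, a homeobox gene, was also not detected in restricted mice and at least 1.19-fold lower (adjusted p = 0.00748). It was detected on 8 of 10 young and 2 of 7 old ad libitum arrays. It therefore met the 5-array detection filter only through the young mice, where it was high. Srsf5, a splicing factor, was 1.85-fold lower (adjusted p = 0.0305) and Pfkfb3, which makes the activator of phosphofructokinase, was 1.96-fold lower (adjusted p = 0.0288), both without overlap. Pfkfb3 was detected on 1 of 7 restricted and 9 of 10 young arrays, so its size, like those of Ubd and Serpina1d, was measured against signals near background. Bcl2, Tph2, Kif5c and Gbx2 passed without each mouse in turn. Ubd lost the call without restricted mouse 1 or 3 or young mouse 1, 2 or 3 (up to 0.0628), Srsf5 without restricted mouse 1 or 3 or any of young mice 1 to 4 (up to 0.0832), and Pfkfb3 without restricted mouse 3 or young mouse 2 or 3 (up to 0.0817).

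Genes of innervation and of fibre type were examined next. Of the list for denervation and the neuromuscular junction 20 genes were tested and 2 rose, Chrnb1 and Myod1, where 2.02% of all genes rose, with 13 higher and a median of 0.28. The list's mean centred level ran from -0.13 to 0.09 in restricted and -0.50 to -0.21 in young mice, and its median was 0.50 in old ad libitum against young mice. Myod1, the myogenic transcription factor, had signals of 7.96, 7.20, 7.92, 7.66 and 8.00 in restricted mice and 6.36 to 7.23 (median 6.92) in young mice, with restricted mouse 2 inside the young range (1.84-fold higher, a log2 difference of 0.88 ± 0.16 SE, adjusted p = 0.00711). Chrnb1, the beta subunit of the acetylcholine receptor, had signals of 11.55, 11.62, 11.66, 11.52 and 11.52 in restricted mice and 11.05 to 11.26 (median 11.23) in young mice, without overlap (log2 difference 0.37, adjusted p = 0.0359). Old ad libitum mice were above young mice by 0.62 for Myod1 (adjusted p = 0.0452) and by 0.49 for Chrnb1 (adjusted p = 0.013). Myod1 passed without each mouse in turn, and Chrnb1 lost the call without any of restricted mice 1 to 4 or young mice 1 to 5 (up to 0.0944). Of 10 satellite cell markers tested, Myod1 rose and Heyl, a target of Notch, fell (log2 difference -0.59, adjusted p = 0.0382). Of all genes, 2.02% rose and 2.68% fell. Pax7 was not detected. Heyl lost the call without any of restricted mice 1 to 4 or young mice 1 to 4 (up to 0.0936).

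Slow fibre genes varied widely from mouse to mouse. Of 16 tested, Myh7 rose, where 2.02% of all genes rose. In all 12 were higher, with a median of 0.77, where 48.3% of all genes were higher. The mean centred level ran from -1.01 to 1.22 in restricted and -1.01 to 0.31 in young mice, so the groups overlapped. Myh7, the slow myosin heavy chain, had signals of 7.97, 7.32, 8.42, 6.38 and 4.78 in restricted mice and 4.58 to 6.30 (median 4.98) in young mice (a log2 difference of 1.80 ± 0.50 SE, adjusted p = 0.049). Myh6, its neighbour and close paralog, had signals of 8.56, 8.65, 8.72, 7.57 and 5.78 in restricted mice and 5.52 to 7.27 (median 6.02) in young mice (adjusted p = 0.0484), and probes of the pair may share signal. Myh7 was detected on 5 of 7 restricted, 1 of 7 old ad libitum and 1 of 10 young arrays. The 5-array detection filter was met only through the restricted mice, where Myh7 was high. The Myh7 difference was measured against young signals near background. Myh6 was detected on 6 of 7 restricted and 5 of 10 young arrays. Restricted mouse 5 was the lowest restricted mouse for both and lay inside the young range. Both lost the call without any of restricted mice 1 to 4 or without young mouse 1, 2, 3, 5 or 6 (highest adjusted p 0.139 for Myh7), and within the chips Myh7 differed by 0.22 to 3.05. Tnni1, slow troponin I, had signals of 4.91 to 9.32 in restricted mice and 4.87 to 7.27 in young mice (adjusted p = 0.0815). Of the 16 fast fibre genes tested none passed, and their median was -0.01.

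The mitochondrial lists held few calls. None of the 34 tested subunits of complex I, the 37 of complexes II to V, the 22 genes of the tricarboxylic acid cycle, the 23 regulators of mitochondrial biogenesis or the 15 mitochondrial chaperones and proteases passed the limma threshold, where 4.71% of all genes did. Their medians were 0.05, 0.05, 0.01, 0.00 and -0.01 on the log2 scale. With 75th percentile scaling the medians of complex I and of complexes II to V were 0.17 and 0.14. In the same order, 6, 6, 4, 2 and 4 of these genes had an unadjusted p under 0.05, against 1923 of all 8943 genes.

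Ppargc1a, the coactivator PGC-1 alpha that drives mitochondrial biogenesis, had signals of 9.23, 8.75, 8.48, 8.67 and 8.44 in restricted mice and 8.39 to 8.60 (median 8.43) in young mice, a difference of 0.25 ± 0.13 SE that did not pass (adjusted p = 0.262). Sirt3, the mitochondrial deacetylase, had signals of 10.04 to 10.31 in restricted mice and 10.34 to 10.57 in young mice (log2 difference -0.23, adjusted p = 0.127), and Ndufa2 of complex I had 13.76 to 14.13 in restricted mice and 13.41 to 13.86 in young mice (log2 difference 0.26, adjusted p = 0.105). Also of complex I, Ndufb4 differed by 0.38 and Ndufab1 by -0.24 on the log2 scale, and neither passed. A missed threshold does not show that the levels were alike.

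Of 21 tested genes of fatty acid oxidation, 2 rose, where 2.02% of all genes did. Acat1, the mitochondrial thiolase of ketone body use, had signals of 8.61, 8.37, 8.42, 8.47 and 8.04 in restricted mice and 7.51 to 7.98 (median 7.78) in young mice, without overlap (a log2 difference of 0.60 ± 0.15 SE, adjusted p = 0.0304). Acsl6, a long-chain acyl-CoA synthetase, had signals of 10.30, 10.61, 10.61, 10.43 and 10.54 in restricted mice and 9.78 to 10.34 (median 9.96) in young mice (log2 difference 0.50, adjusted p = 0.0138), and old ad libitum mice were also 0.43 above young mice (adjusted p = 0.0345). Mief2, which recruits the fission protein DRP1, was the 1 of 15 genes of fusion, fission and mitophagy that rose (log2 difference 0.37, adjusted p = 0.0324). None of 20 fasting and PPAR target genes or 24 antioxidant enzymes passed, and the medians of these lists were -0.07 and 0.05. Acsl6 passed without each mouse in turn, and Acat1 and Mief2 lost the call without any of restricted mice 1 to 4 or young mice 1 to 4 (up to 0.0793 and 0.0858).

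**Figure D5:**
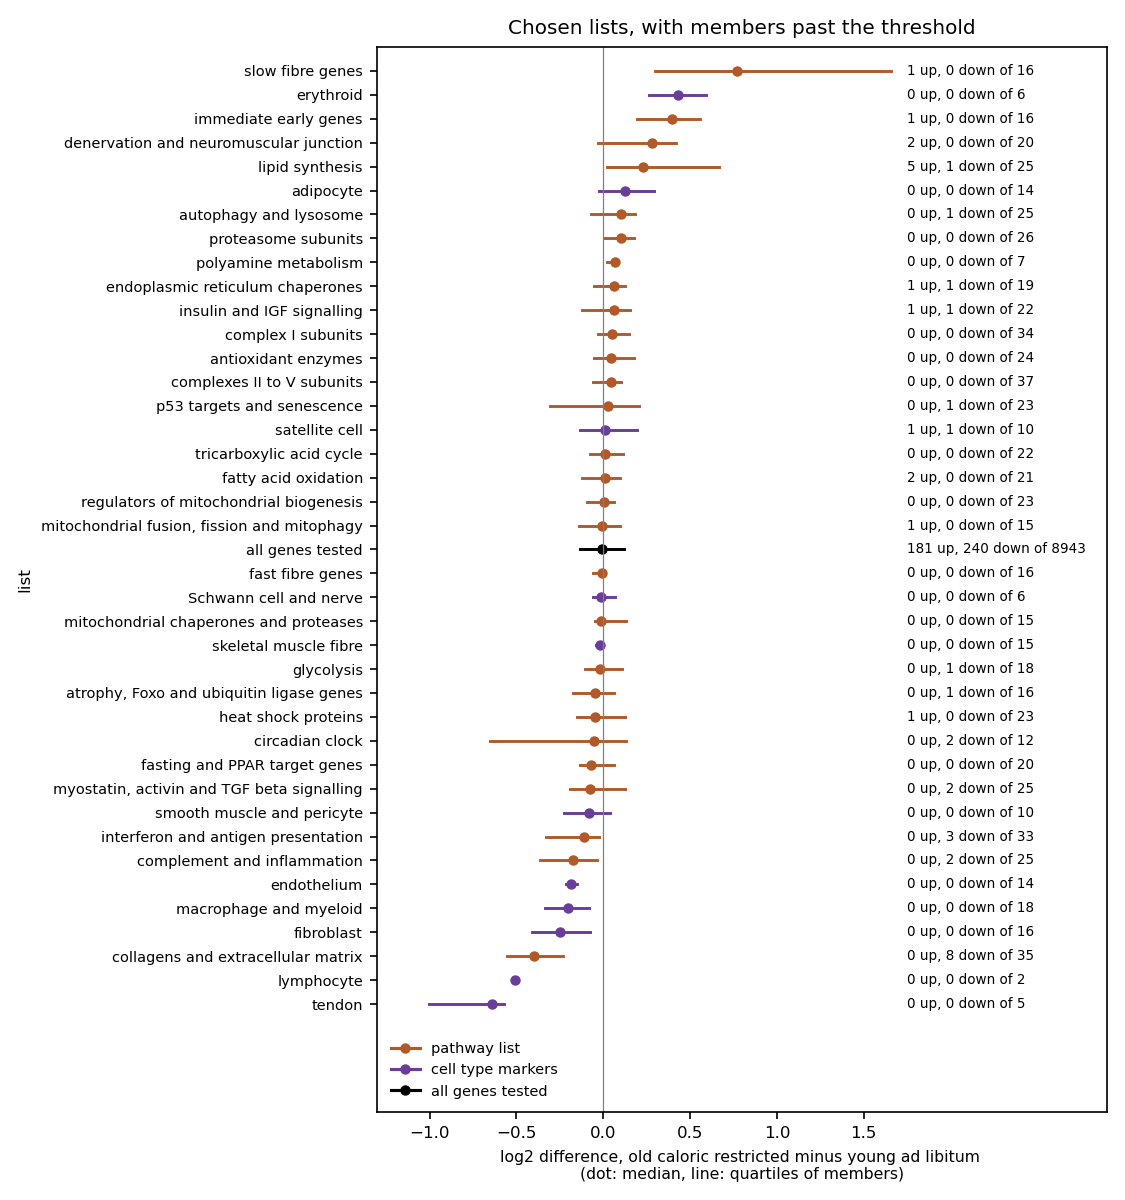
Median log2 difference of old caloric restricted minus young ad libitum mice (horizontal axis, dot, with the quartiles of the members as a line) for each of 39 chosen lists and for all genes tested (vertical axis), with the members past the threshold at the right. Lipid synthesis holds 5 higher and 1 lower of 25, collagens and extracellular matrix 8 lower of 35, and complex I none of 34.

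Lists of growth, stress and protein turnover held 1 or 2 calls each or none, where 4.71% of all genes were called, so 1 call among about 20 genes is near that share. Among 22 genes of insulin and IGF signalling, Igf1r, the IGF-1 receptor, rose with signals of 7.84, 7.65, 7.57, 7.79 and 7.57 in restricted mice and 6.95 to 7.46 (median 7.36) in young mice (log2 difference 0.39, adjusted p = 0.0346), and Igfbp5, an IGF binding protein, fell by 0.52 on the log2 scale (adjusted p = 0.0454). Among 25 genes of myostatin, activin and TGF beta signalling, the signal carriers Smad2 and Smad3 fell on the log2 scale by 0.32 (adjusted p = 0.0149) and 0.42 (adjusted p = 0.0381), and Smad3, which is also on the atrophy list, was the 1 call among its 16 genes. Smad2 did not overlap between the groups, and Smad3 also differed by -0.45 in old ad libitum against young mice (adjusted p = 0.0404).

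Hspa5, the endoplasmic reticulum chaperone BiP, rose by 0.48 on the log2 scale (adjusted p = 0.0221) and its partner Dnajc3 fell by 0.41 (adjusted p = 0.0391) among 19 genes of that compartment. Dnajb1, a cytosolic partner of HSP70, rose by 0.51 without overlap (adjusted p = 0.0296), the 1 call among 23 heat shock genes. Atg12, a conjugate of the growing autophagosome, fell by 0.28 without overlap (adjusted p = 0.0312), the 1 call among 25 genes of autophagy and the lysosome. Igfbp7, a secreted protein linked to senescence, fell by 0.45 (adjusted p = 0.0444), the 1 call among 23 p53 targets and senescence genes. Of these 23 genes, 13 were higher and 10 lower. The unadjusted limma p was under 0.05 for 11 of them, against 1923 of all 8943 genes.

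Of 16 immediate early genes, 14 were higher with a median of 0.40, where 48.3% of all genes were higher. The mean centred level of these genes ran from -0.19 to 0.54 in restricted and -0.45 to 0.08 in young mice, so the groups overlapped. Ccn1, a matricellular protein, was the 1 call among them, where 2.02% of all genes rose. Ccn1 rose, with signals of 9.41, 10.14, 9.53, 10.03 and 9.14 in restricted mice and 8.43 to 9.01 (median 8.94) in young mice (log2 difference 0.81, adjusted p = 0.0259). Of 26 proteasome subunits, 20 were higher, where 48.3% of all genes were, and none passed, with a median of 0.10. Among 6 erythroid markers none passed and the mean centred level ran from -0.31 to 1.18 in restricted and -0.66 to -0.22 in young mice. Of these calls Smad2 passed without each mouse in turn. Hspa5 lost the call without restricted mouse 1 or 3 or young mouse 3, Ccn1 without restricted mouse 2, 3 or 4 or young mouse 2 or 4, and Igf1r without any of restricted mice 1 to 4 or young mice 1 to 3. Igfbp5 and Smad3 lost it without restricted mouse 2, 3 or 4 or any of young mice 1 to 5, and Dnajb1, Dnajc3, Atg12 and Igfbp7 without any of restricted mice 1 to 4 or young mice 1 to 4, the last 3 also without young mouse 5. Their highest adjusted p lay between 0.0669 for Ccn1 and 0.109 for Igfbp5.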

How the data were processed

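Gastrocnemius RNA was measured on Illumina bead arrays, labelled as biotinylated cRNA with the Ambion MessageAmp kit after QIAGEN RNeasy extraction, per the labels' protocols. Per the file headers, the deposited table without normalization gives for every probe on every array the average signal intensity with its detection p-value. GenomeStudio made them, per the submitters' processing notes (no version found in the sources). The authors' normalized values, deposited as intensity on a linear scale with column medians of 98.6 to 98.7, served as an alternative, and their normalization method is not given in the sources used here.

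Background correction and quantile normalization used neqc (limma 3.58.1, R 4.3.3, offset 16). Probes detected (p under 0.01) on at least 5 of 24 arrays were kept. Of 45281 probes, 34885 had 1 gene symbol in the platform annotation, 18 had several or a blank one, and 10378 were not listed there. The 2003 kept probes without a single symbol were left out. Each mouse's arrays were averaged, and the probe with the highest mean stood for a gene. Of 8943 genes, 3069 had more than 1 kept probe.

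Groups were compared with lmFit and eBayes in 1 fit over 17 mice, so the old ad libitum mice entered the spread but not the contrast (two-sided, Benjamini-Hochberg over all genes, threshold 0.05). A gene detected on no array of a group has a bound, taken from the other group's mean against, per array, its dimmest detected signal or the probe's own value, whichever was higher. The 28 pathway and 11 marker lists held 911 entries and are described by counts and medians, and a mean centred level is the mean over a list of log2 signals minus each gene's mean over the mice. The members, lists and rule for named genes were chosen with earlier results of these data known. The text names the 15 greatest rises and 15 greatest falls among called genes (clone and locus names left out, and 1 rise not reported here), every called list member, and for each list up to 3 members of smallest p. Promoters came from RefSeq (9 of 12 genes looked up had an entry, and Scd1, H2-Ab1 and H2-Ea had none). The procedure was tested on simulated data. Alternatives covered background correction, scaling, the authors' values, detection filters, repeated arrays, chip, probes, a replicate block, priors, array weights, the 11 mice or 17 arrays of the compared groups alone, and each mouse left out; leaving out young mice 1, 2 and 3 was added after seeing the data. Same-numbered restricted and young mice correlated between -0.25 and 0.19 in their deviations. Without differently numbered mice beside them, these values cannot show whether the numbers pair the mice, and the mice were treated as unpaired. Figures were drawn with matplotlib 3.10.9.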

Additional observations from a re-analysis of the deposited data

Results flagged for a closer look

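Within a group, 11 values stood apart from the nearest other mouse by more than Dixon's critical value, among 118 groups of values examined, and chance sets apart about 1 group in 20. Of these, 10 were in young mice, and in 8 of those the mouse was number 6 or number 4. Young mouse 6 was the highest young mouse for Scd1 at 14.34, for Mgst2 at 7.38 and for Slc1a3 at 7.43, where the nearest young mouse had 13.00, 6.16 and 6.80, and the lowest for Dnajc3 at 8.11, with the nearest at 8.34. Young mouse 4 was the lowest for Tph2 at 5.06, for Ubd at 5.33, for Mmp12 at 4.70 and for Hp at 8.69, where the nearest young mouse had 7.5, 7.21, 6.49 and 10.09. Young mouse 1 was the lowest for Chrnb1 at 11.05, with the nearest at 11.21, and the highest for Col4a2 at 10.72, with the nearest at 10.48. Restricted mouse 2 was the highest restricted mouse for Ubd at 5.91, with the nearest at 5.29.

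Each of the values of young mouse 6 and young mouse 4 lay on the side of the restricted mice. Without young mouse 6 the number of genes past the threshold was 558, and without young mouse 4 it was 194, against 421 with all mice.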

How the results depend on the processing

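With 421 genes called in all (181 higher, 240 lower), all alternatives kept the direction of each called gene they tested, except that 419 of 421 kept it with the mean of probes and 408 with the probe of largest variance. The count stayed within 1.5 times under the alternatives that left out no mouse, other than these. It was 273 (103 higher) without a detection filter and 1147 (487 higher, 660 lower) with array weights. Same-numbered mice were treated as unpaired, and with the number as a replicate block 244 genes passed (99 higher, 145 lower). Scaling to the 75th percentile gave 374 genes, 208 higher and 166 lower, so 55.6% of the calls were higher, against 43.0%. Leaving out 1 mouse gave 131 to 691 genes, 50 to 293 higher and 81 to 398 lower. Without young mice 1, 2 and 3, chosen after seeing the data, 3 genes passed (2 higher, 1 lower), and the list medians were 0.0140 for insulin and IGF signalling, 0.0555 for proteasome subunits, -0.318 for the circadian clock and -0.00614 for myostatin and TGF beta signalling.

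Under 75th percentile scaling the list medians were 0.17 for complex I, 0.14 for complexes II to V, 0.0644 for mitochondrial chaperones, 0.0590 for glycolysis, 0.0603 for fast fibre genes, 0.161 for proteasome subunits, -0.00800 for TGF beta signalling, 0.0660 for muscle fibre markers and 0.0870 for satellite cell markers. The denervation median was 0.18 without background correction and with the authors' values. Mitochondrial chaperones had 0.0330 with the mean of probes, 0.0927 with the probe of largest variance and 0.0195 with the replicate block, and Schwann cell markers 0.11 with the probe of largest variance. Leaving out 1 mouse, insulin and IGF signalling ran from 0.0102 to 0.0675, satellite cell markers from -0.0261 to 0.0633, lipid synthesis from 0.139 to 0.323, the circadian clock from -0.172 to -0.0228, interferon and antigen presentation from -0.171 to -0.0745, adipocyte markers from 0.0620 to 0.288 and erythroid markers from 0.274 to 0.522. List medians within 0.1 of 0 moved by over 1.5 times for most lists. The cause of these moves was not tested. Of the 59 named genes past the threshold, 25 passed without each mouse in turn, and Mup2, Myh7 and Fasn missed it when the fit held only the 11 mice compared (adjusted p = 0.057, 0.0654 and 0.0633). Signals near background, as for Mup2, Tph2, Mmp12, Kif5c, Gbx2 and Ccl7 in restricted mice, give bounds only, and those of Serpina1d, Ubd and Pfkfb3 in restricted and Myh7 in young mice were detected on 1 array.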

Other observations

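Some genes of sugar and amino acid metabolism came near the threshold without passing. Fbp2, the muscle fructose bisphosphatase that opposes glycolysis, had signals of 12.63, 12.55, 12.87, 12.69 and 12.57 in restricted mice and 11.81 to 12.09 (median 11.95) in young mice, with no overlap, and the difference of 0.72 ± 0.21 SE missed the threshold (limma adjusted p = 0.06). Old ad libitum mice ran from 10.73 to 12.36 (median 11.80), and restricted mice were 0.94 above them (adjusted p = 0.0263). Asns, asparagine synthetase, had signals of 7.75 to 9.04 in restricted mice and 7.25 to 8.40 in young mice (log2 difference 0.76, adjusted p = 0.058), and old ad libitum mice were 0.74 above young mice (adjusted p = 0.0715). Acot1, a cytosolic acyl-CoA thioesterase, had signals of 8.30 to 9.85 in restricted mice and 7.30 to 8.49 in young mice (log2 difference 1.32, adjusted p = 0.0875). Angptl4, on the same list of fasting and PPAR target genes, differed by -0.93 on the log2 scale and did not pass.

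Slc4a1, the anion exchanger of red cells, had signals of 5.03, 10.41, 7.65, 4.93 and 4.85 in restricted mice 1 to 5 and 4.74 to 4.96 (median 4.84) in young mice, and did not pass (adjusted p = 0.332). Phlda3, a p53 target, had signals of 12.21, 12.35, 12.40, 12.35 and 12.31 in restricted mice and 11.65 to 12.14 (median 11.97) in young mice, with no overlap, and a difference of 0.41 (adjusted p = 0.0507).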
